A study of Mus musculus with 9 samples.

Results

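The STAT and SOCS genes followed here were 9 of the 53465 genes in the count table of mouse bone marrow-derived macrophages (BMDMs): the transcription factor genes Stat2, Stat3, Stat4, Stat5a, Stat5b and Stat6 and the feedback inhibitor genes Socs1, Socs3 and Cish. They were found by gene symbol, and all 9 symbols were present. The BMDMs were grown from the marrow of male C57BL/6 mice (C57bl6/J in the study's methods) with 50 ng/ml CSF1, the growth factor on which macrophages depend, and all 9 libraries share this background. Each of the 3 groups held 3 libraries. One group was left untreated (UNX). The second received medium conditioned by pulmonary artery adventitial fibroblasts, the connective tissue cells of the outer vessel wall, of control calves (CO-CM). The third received medium from the same kind of fibroblast of calves with hypoxia-induced pulmonary hypertension (PH-CM). The labels give the exposure as 16 h in one protocol and 24 h in another, and the study's methods give a time between these. These methods add serum to the conditioned media, name no CSF1 for that step and describe no control of unconditioned medium. In differences from UNX, fibroblast products therefore cannot be told apart from the change of culture medium. The methods describe fibroblast medium pooled from several cell populations and a repeated experiment, so the replicates are cultures of mouse macrophages and not separate calves, and p-values measure the spread between such cultures.

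Cytokine receptors without a kinase of their own are bound by Janus kinases (JAKs). When a ligand joins the receptor chains, the JAKs phosphorylate STAT proteins, which pair, enter the nucleus and bind DNA. STAT3 mostly follows receptors that use the gp130 chain, such as those of IL-6, oncostatin M and LIF, and the IL-10 receptor. STAT2 acts downstream of type I interferon, in the ISGF3 complex with IRF9. STAT4 follows IL-12 and type I interferon, STAT6 follows IL-4 and IL-13, and STAT5A and STAT5B follow GM-CSF, IL-3 and other ligands of the common beta and gamma chains. The SOCS genes and Cish are switched on by the STATs and their proteins dampen the same receptors and kinases: SOCS3 binds gp130, SOCS1 inhibits the JAKs of interferon receptors, and CISH acts on receptors that signal through STAT5. These are RNA measurements, and STAT activity depends on phosphorylation, which was not measured.

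The promoters of the feedback genes are shown. Socs3 and Cish hold palindromes of the kind that STAT dimers are known to read, and Socs1 holds interferon cores. That of Stat2, which holds both kinds of match, is shown too. Of the STAT genes, Stat2, Stat3 and Stat4 differed between the media, and the promoters of Stat3 and Stat4 are not printed. The RefSeq windows run from 250 bases before to 50 bases after each start on GRCm38.p6. All 9 genes matched, with 12 windows among them. Both strands were searched for TTCNNNGAA and TTCNNNNGAA, the palindromes of STAT dimers, and for GAAANNGAAA, the core of the interferon-stimulated response element. Capitals mark the matches, and each stretch runs 5′ to 3′ along the strand of its gene.
Socs3 (chr11:117969457-117969556, minus strand): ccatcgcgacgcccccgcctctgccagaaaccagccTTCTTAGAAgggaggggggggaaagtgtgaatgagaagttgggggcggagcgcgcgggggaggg
Cish (chr9:107296579-107296680, plus strand): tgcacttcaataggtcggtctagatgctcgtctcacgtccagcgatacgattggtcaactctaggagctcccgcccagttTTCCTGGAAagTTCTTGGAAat
Socs1 (chr16:10785557-10785656, minus strand): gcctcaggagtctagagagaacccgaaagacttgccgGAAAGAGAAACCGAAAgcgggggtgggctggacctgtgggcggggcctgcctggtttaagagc
Stat2 (chr10:128270248-128270347, plus strand): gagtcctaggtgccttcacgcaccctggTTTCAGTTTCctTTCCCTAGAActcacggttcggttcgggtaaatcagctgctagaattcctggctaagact

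The Socs3 stretch held TTCTTAGAA, which began 154 bases before the start. Cish held 2 such palindromes, TTCCTGGAA at the start itself and TTCTTGGAA from position 12 after it. The capitals of Socs1 are a pair of overlapping interferon cores, GAAAGAGAAA and GAAACCGAAA, 83 and 77 bases before the start. Stat2 held the core in its reverse reading, TTTCAGTTTC, and beside it the wider palindrome TTCCCTAGAA. The second start of Stat4 had 1 interferon core, GAAAGTGAAA, 97 bases before it. The windows of the other 4 genes, Stat3, Stat5a, Stat5b and Stat6, held none of these letters. Of all 32851 RefSeq windows of this length, 8.30% held the narrow palindrome, 6.95% the wide one and 3.44% the interferon core. A match describes the sequence and not a bound site.

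Libraries held 62017933 to 84314201 counted reads. The macrophage markers were high in every library, with a summed level of 4622 to 6895 CPM (counts scaled to a fixed library total) over 6 genes, and Csf1r, the CSF1 receptor, lay between 1519 and 2982 CPM. T cell and NK cell genes were near absent: Cd3g, Ncr1, Nkg7, Gzma and Prf1 had no read in any library, and Cd4, which macrophages can also carry, was the exception, at 1.39 to 3.31 CPM in UNX, 6.25 to 7.84 CPM in CO-CM and 13.2 to 17.1 CPM in PH-CM. The 6 dendritic cell markers summed to 0.447 to 0.884 CPM and Ly6g, a neutrophil marker, was at 0. The 5 neutrophil markers summed to 1.37 to 2.07 CPM in UNX, 2.75 to 3.51 CPM in CO-CM and 2.50 to 3.48 CPM in PH-CM, led by S100a8, and their part in the results was not tested. The 3 mast cell or basophil markers summed to 0.458 to 0.659 CPM in PH-CM, led by Mcpt8. Their sum was 0.0308 to 0.185 CPM in UNX and 0 to 0.0876 CPM in CO-CM. The part of such cells in the results was not tested. Fibroblast genes, led by the collagen gene Col1a1, summed to 197 to 249 CPM in UNX, 266 to 318 CPM in CO-CM and 249 to 334 CPM in PH-CM, and the part of these cells in the results was not tested. In bulk RNA, fewer cells of a type and less RNA per cell cannot be told apart.

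Counts were compared in one edgeR quasi-likelihood fit. A call required an FDR no higher than 0.05 together with a change of 1.2-fold or more. The 3 comparisons share their groups, so they are not independent of each other. Of the 9 genes, 8 passed the filter of more than 1 CPM in at least 3 libraries, and Cish did not. Under PH-CM against UNX, 3 of the 8 were higher (Stat3, Stat4 and Socs3), 1 was lower (Socs1) and 4 were not called. This is 4 of 8 called, and 63% of all 11950 genes tested were called in that comparison. Under CO-CM against UNX, 2 were higher (Stat3 and Socs3), 3 were lower (Stat2, Stat4 and Socs1) and 3 were not called, where 57% of all genes were called. Between the media, PH-CM against CO-CM, 4 were higher (Stat2, Stat3, Stat4 and Socs3), 0 were lower and 4 were not called, with 27.1% of all genes called. The count of lower genes was 0 also at an unadjusted p under 0.05, with edgeR's exact test and with DESeq2. The median log2 fold change of the 8 was 0.12, 0.04 and 0.50 in these comparisons, beside 0.01, 0.0002 and -0.01 over all genes tested.

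**Figure D1:**
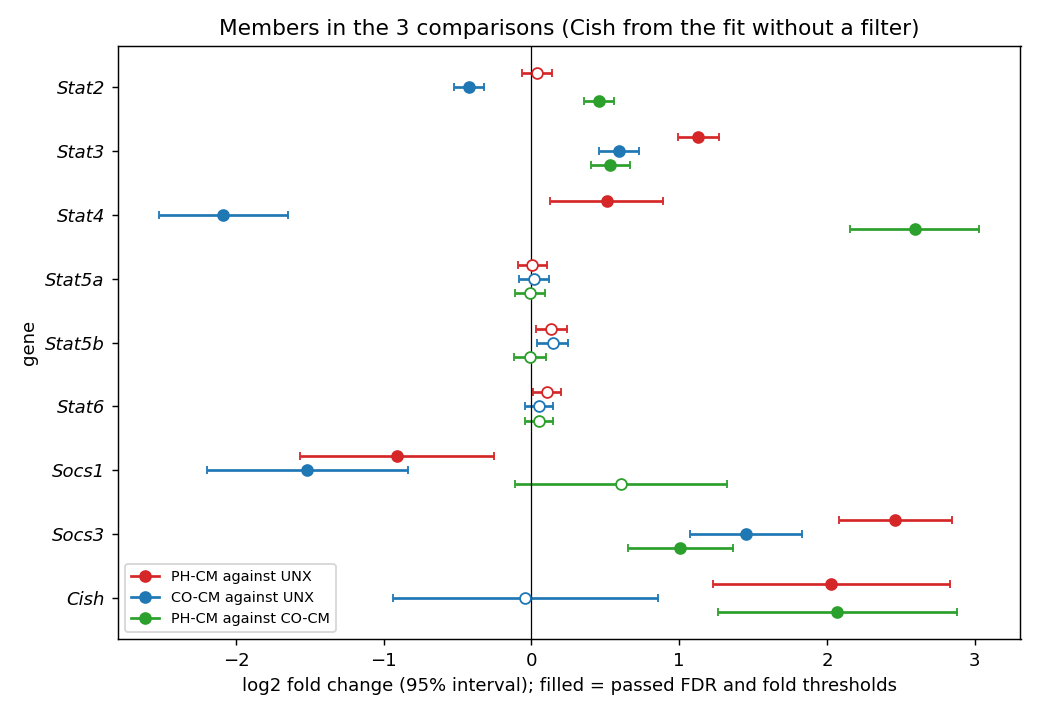
Log2 fold change (x axis) of each gene (y axis) under PH-CM against UNX in red, CO-CM against UNX in blue and PH-CM against CO-CM in green, with 95% intervals from 3 libraries a group. Filled points passed both thresholds. Stat4 lies on opposite sides of 0 in red and blue, and Stat5a sits at 0 in all 3 colours. Cish comes from a fit of all genes with at least 1 read.

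Stat3, the gene of the gp130 pathway's factor, rose stepwise. Its normalised levels were 115, 116 and 115 CPM in UNX, 176, 183 and 164 CPM in CO-CM, and 239, 275 and 245 CPM in PH-CM. No library of one group overlapped another, and the 3 UNX libraries were almost equal. PH-CM raised it 2.19-fold over UNX (log2 fold change 1.13 ± 0.06 SE, FDR = 6.65e-08) and CO-CM raised it 1.51-fold (log2 0.60 ± 0.06 SE, FDR = 1.00e-05). The media differed from each other by 1.45-fold (log2 0.54, 95% interval 0.40 to 0.67, FDR = 8.02e-05). Stat3 and Stat5a lie tail to tail on chromosome 11 and share 72 exon bases on opposite strands, few beside the 9527 exon bases of Stat3.

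Socs3, whose protein blocks signalling from gp130, moved in the same order and further. It was at 3.27, 3.64 and 3.46 CPM in UNX, at 7.89, 12.3 and 8.27 CPM in CO-CM, and at 16.6, 21.4 and 19.3 CPM in PH-CM. The groups did not overlap, and replicate 2 was the highest library in each medium. PH-CM raised Socs3 5.52-fold over UNX (log2 2.46 ± 0.17 SE, FDR = 4.12e-07), CO-CM raised it 2.74-fold (log2 1.46 ± 0.17 SE, FDR = 2.75e-05), and PH-CM exceeded CO-CM 2.01-fold (log2 1.01, 95% interval 0.66 to 1.36, FDR = 0.000701). Per length, Socs3 RNA was 0.0986 ± 0.00462 of Stat3 RNA in UNX, 0.178 ± 0.0385 in CO-CM and 0.248 ± 0.0169 in PH-CM (ratio of RPKM, SD, n = 3), and these ratios were not tested.

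Stat4, the IL-12 factor, took opposite directions under the media. The UNX libraries had 2.77, 3.40 and 3.36 CPM, the CO-CM libraries 0.526, 0.747 and 0.968 CPM, and the PH-CM libraries 4.25, 4.53 and 4.82 CPM. Every CO-CM library was below every UNX library, and every PH-CM library above. CO-CM lowered Stat4 4.24-fold (log2 -2.09 ± 0.20 SE, FDR = 5.72e-06) and PH-CM raised it 1.42-fold (log2 0.51 ± 0.17 SE, FDR = 0.0201). The gap between the media was 6.04-fold (log2 2.60, 95% interval 2.16 to 3.03, FDR = 5.38e-06), rank 82 by size among the 11950 genes tested in that comparison. The rise under PH-CM alone was not called without UNX replicate 1 (log2 0.41, FDR = 0.0711) or without PH-CM replicate 3 (log2 0.47, FDR = 0.0616), and the other Stat4 calls held without any one library. Stat4 was also low, at 36 to 305 counted reads, and shares 1033 of its 3872 exon bases with Gm28177 on the same strand, whose reads cannot be assigned to 1 gene. Stat4 is best known from T and NK cells. Of the 6 T cell markers, Cd3g had no read, the other 4 apart from Cd4 stayed at or below 0.0446 CPM in every library, and Cd4 was highest in PH-CM, as Stat4 was, and lowest in UNX, where Stat4 was not. The 5 NK cell markers summed to no more than 0.186 CPM. The part of such cells in the Stat4 values was not tested.

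Stat2, the interferon factor, was lowest under CO-CM. Its levels were 78.1, 86.3 and 81.4 CPM in UNX, 60.5, 61.97 and 61.1 CPM in CO-CM, and 84.8, 85.2 and 81.8 CPM in PH-CM. The CO-CM libraries lay below all others, while UNX and PH-CM overlapped. The drop under CO-CM was 1.34-fold (log2 -0.42 ± 0.05 SE, FDR = 1.65e-05) and PH-CM exceeded CO-CM 1.37-fold (log2 0.46, 95% interval 0.35 to 0.56, FDR = 3.72e-05). Between PH-CM and UNX the log2 difference was 0.04, with a 95% interval of -0.07 to 0.14 (FDR = 0.502).

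Socs1, the inhibitor best known from interferon signalling, was highest in untreated cells. It had 1.69, 2.28 and 1.81 CPM in UNX, 0.643, 0.359 and 1.01 CPM in CO-CM, and 1.07, 0.804 and 1.201 CPM in PH-CM. All UNX libraries lay above the others, and the media overlapped. It fell by 1.52 on the log2 scale under CO-CM (SE 0.31, FDR = 0.00126) and by 0.91 under PH-CM (SE 0.30, FDR = 0.0168). The second call was lost without UNX replicate 2 (FDR = 0.0548) or PH-CM replicate 2 (FDR = 0.0657). The media differed by 0.60 on the log2 scale with an interval from -0.11 to 1.32 (FDR = 0.169), and leaving out CO-CM replicate 3 brought a call (log2 1.03, FDR = 0.0321). Socs1 passed the filter only with the help of the UNX libraries, in which it is high, so its calls against UNX start from that selection.

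Cish, the feedback gene of the STAT5 pathway, was the rarest of the 9. It had 19, 23 and 10 counted reads in UNX, 8, 30 and 10 in CO-CM, and 49, 83 and 58 in PH-CM, or 0.293, 0.304 and 0.116 CPM, 0.117, 0.448 and 0.140 CPM, and 0.728, 1.33 and 0.917 CPM. Every PH-CM library was above all others, and UNX and CO-CM overlapped. In a fit of the 26930 genes with at least 1 read, chosen for this gene after its counts were seen, Cish was 4.09-fold higher under PH-CM than in UNX (log2 2.03 ± 0.40 SE, FDR = 3.37e-05) and 4.20-fold higher than under CO-CM (log2 2.07 ± 0.40 SE, FDR = 8.07e-05). CO-CM and UNX differed by -0.04 on the log2 scale (95% interval -0.94 to 0.85). In this fit 32.9%, 13.8% and 28.8% of all genes were called under PH-CM against UNX, PH-CM against CO-CM and CO-CM against UNX. Leaving out CO-CM replicate 2 moved the gap between the media to a log2 value of 2.92 (FDR = 1.37e-06). Cish shares exon bases with the genes Gm17040 and Gm17041 on the opposite strand, at most 479 of its 6419 with any 1 of them.

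**Figure D2:**
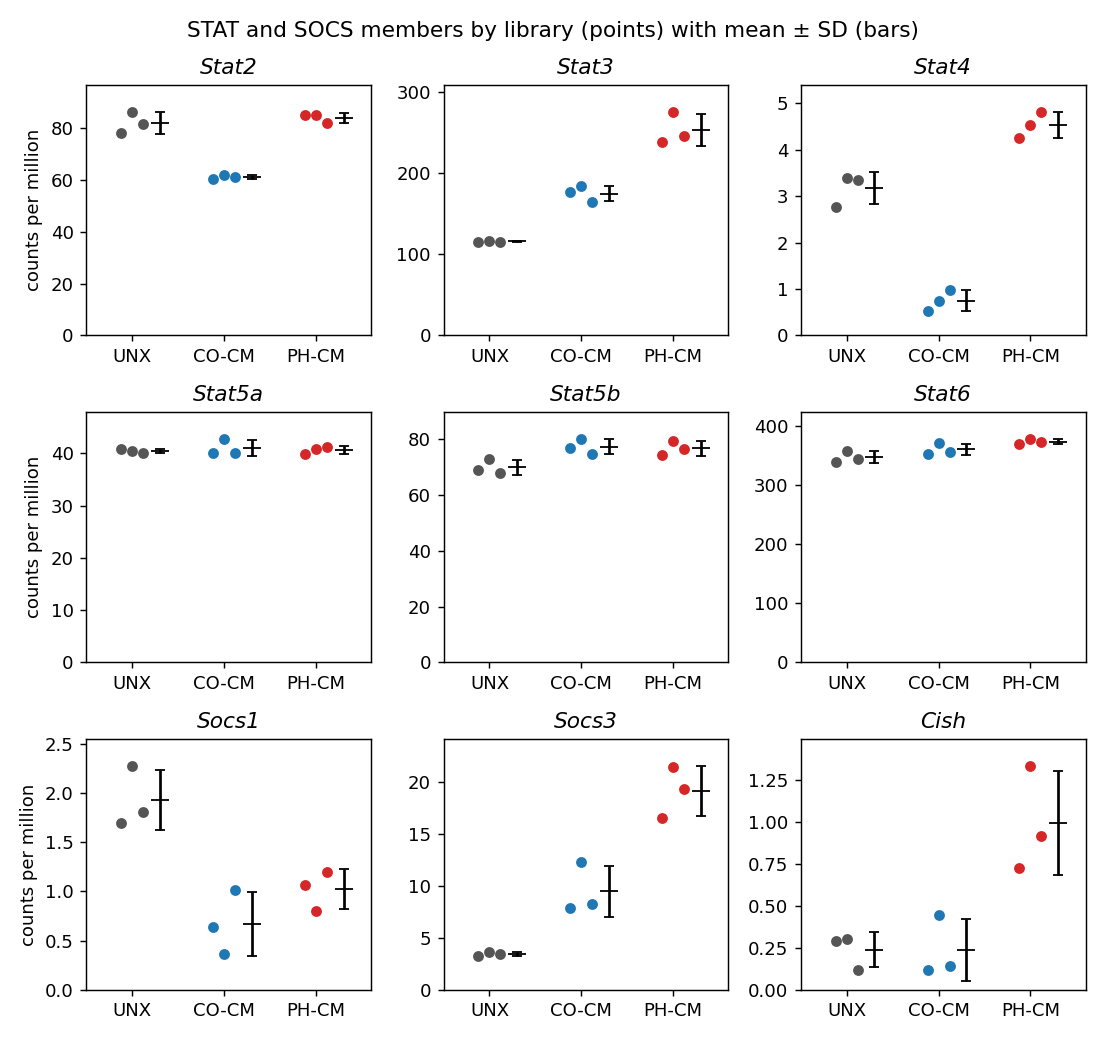
CPM (y axis, from 0, TMM-normalised) of the 9 genes in the 3 libraries of UNX, CO-CM and PH-CM (x axis). Points are libraries, and the bar beside them is the mean ± SD. Stat3 and Socs3 climb from UNX over CO-CM to PH-CM, the CO-CM points of Stat2 and Stat4 lie lowest, Socs1 is highest in UNX and Cish in PH-CM.

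The 3 other STAT genes stayed close to their level in untreated cells. Stat5a had 40.8, 40.5 and 40.1 CPM in UNX, 40.1, 42.8 and 40.1 CPM in CO-CM and 39.9, 40.8 and 41.3 CPM in PH-CM. Its groups overlapped throughout, and its log2 differences were 0.01, 0.02 and -0.01 in the 3 comparisons, with 95% intervals that stayed between -0.11 and 0.12. These intervals do not reach the 1.2-fold threshold.

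Stat5b had 68.9, 72.6 and 67.5 CPM in UNX, 76.5, 79.9 and 74.6 CPM in CO-CM and 74.0, 79.1 and 76.3 CPM in PH-CM. Libraries of both media lay above UNX, by a log2 value of 0.14 (CO-CM, FDR = 0.02002) and 0.13 (PH-CM, FDR = 0.0257), which passed the FDR but not the fold threshold. The FDRs were 0.235 and 0.307 in the fit without a filter. Between the media the difference was -0.01 (95% interval -0.12 to 0.10). Stat5a and Stat5b are neighbours on chromosome 11, 8626 bases apart, and were the 1 pair among the 9 that shared exact transcript stretches of read length (150 bases). These covered 2.21% of the stretches of Stat5a and 3.16% of those of Stat5b.

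Stat6, the IL-4 factor and the most abundant of the 9, had 340, 359 and 344 CPM in UNX, 354, 371 and 357 CPM in CO-CM and 370, 379 and 374 CPM in PH-CM. The PH-CM libraries lay just above those of UNX (log2 0.11, FDR = 0.0425, under the fold threshold), and CO-CM overlapped both. The media differed by 0.05 on the log2 scale (95% interval -0.04 to 0.15, FDR = 0.364).

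Levels of different genes were compared per length, as the authors' RPKM. In UNX, Stat6 led with 81.3 ± 1.88 RPKM (SD, n = 3), ahead of Stat2 with 14.2 ± 0.579, Stat5b with 13.0 ± 0.490 and Stat3 with 12.5 ± 0.135. The last pair overlapped. Stat5a followed with 5.84 ± 0.123, then Socs1 with 1.63 ± 0.246, Socs3 with 1.23 ± 0.0529, Stat4 with 0.844 ± 0.0823 and Cish with 0.0382 ± 0.0171. These neighbours did not overlap in any library, apart from Stat5b and Stat3.

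Under CO-CM the order changed below Stat6 (80.4 ± 1.21 RPKM). Stat3 took the next place with 18.0 ± 1.00, before Stat5b with 13.6 ± 0.436 and Stat2 with 10.1 ± 0.0916, and Socs3 with 3.21 ± 0.785 stood above Socs1 with 0.540 ± 0.262. Stat4, at 0.189 ± 0.0540, was near the bottom. Under PH-CM, Stat6 had 84.1 ± 0.503 RPKM and Stat3 26.3 ± 1.77, and Stat2 (14.0 ± 0.415) and Stat5b (13.7 ± 0.300) overlapped. Socs3 reached 6.53 ± 0.746 RPKM and in every library exceeded Stat5a (5.64 ± 0.0438), which it did not do in the other groups.

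Of the summed RPKM of the 6 STAT genes, Stat3 made up 9.78 ± 0.205% in UNX, 14.0 ± 0.494% in CO-CM and 18.1 ± 0.942% in PH-CM (SD, n = 3). Stat6 made up 63.7 ± 0.0430%, 62.8 ± 0.465% and 58.1 ± 0.785%. The sum itself was 128 ± 2.93 RPKM in UNX, 128 ± 2.77 in CO-CM and 145 ± 2.34 in PH-CM.

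**Figure D3:**
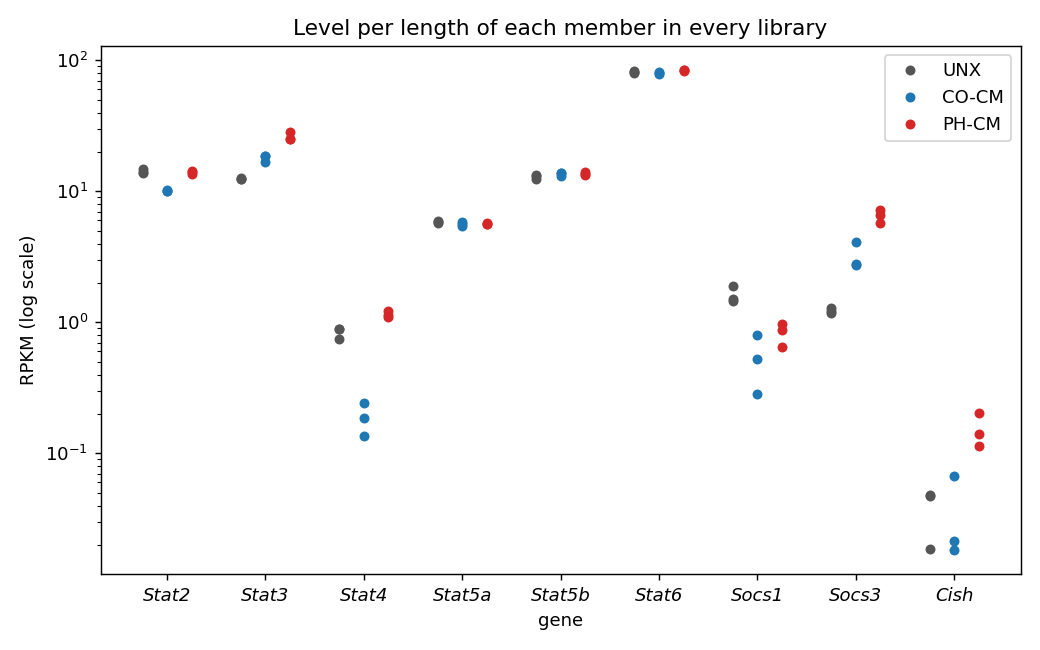
RPKM (y axis, log scale) of each gene in every library, with UNX in grey, CO-CM in blue and PH-CM in red. Stat6 lies highest and Cish lowest in all groups, and Socs3 passes Stat5a in PH-CM.

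The rest of the pathway was counted from lists of ligands, receptors, kinases, inhibitors and target genes. Of 18 ligand genes, 6 passed the filter. Under PH-CM 5 of these 6 were called higher than in UNX and under CO-CM 1, beside 63% and 57% of all genes called, and 3 were higher in PH-CM than in CO-CM, where all genes gave 27.1% called. Lif and Clcf1 passed the filter only with the PH-CM libraries, in which they are highest, so the counts of higher genes under PH-CM are partly set by the filter. The 3 became 1 without PH-CM replicate 2 or replicate 3. The 3 were Osm, which encodes the gp130 ligand oncostatin M, Lif, another gp130 ligand, and Il15, whose receptor uses the common gamma chain. Osm lay at 9.68 to 14.1 CPM in UNX, 9.54 to 13.3 CPM in CO-CM and 25.9 to 43.2 CPM in PH-CM. Its PH-CM libraries were above all others (log2 1.62 ± 0.20 SE between the media, FDR = 0.000156). Lif was rare, at 0.291 to 0.524 CPM in UNX, 0.478 to 0.964 CPM in CO-CM and 1.38 to 2.20 CPM in PH-CM (log2 1.42 ± 0.31 SE between the media, FDR = 0.00459). Il15 differed between the media by 0.74 on the log2 scale (FDR = 0.0220), a call lost when replicate 1 or 3 of CO-CM, or replicate 2 or 3 of PH-CM, was left out (FDR up to 0.0859). Calls under CO-CM depended on the fit. With the replicate block, which pairs same-numbered libraries, 4 of the 6 were called higher than in UNX, Lif (FDR = 0.00600) and Il15 (FDR = 0.000164) among them. Lif was also called there with the exact test, with DESeq2's Wald test, with upper-quartile factors and without a filter.

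Among 9 receptor chains of the gp130, IL-10 and G-CSF families, 5 were higher and 2 lower under PH-CM than in UNX, and 6 higher and 1 lower under CO-CM. These 7 of 9 called in each stand beside 63% and 57% of all genes. Between the media 1 was higher under PH-CM and 4 were lower, beside 27.1% of all genes called. The higher one was Osmr, the oncostatin M receptor (log2 1.14 ± 0.19 SE, FDR = 0.000934). Il6st, the gene of gp130 itself, was at 164 to 169 CPM in UNX, 222 to 249 CPM in CO-CM and 135 to 150 CPM in PH-CM. The 3 groups did not overlap, and PH-CM lay below CO-CM by a log2 value of 0.75 (log2 -0.75 ± 0.06 SE, FDR = 5.30e-06). Il11ra1, the IL-11 receptor, was also lower in PH-CM than in CO-CM (log2 -1.15 ± 0.17 SE, FDR = 0.000515), as was Il27ra, the rare IL-27 receptor chain (log2 -1.92 ± 0.49 SE, FDR = 0.0106), which had as few as 8 counted reads and passed the filter only through UNX and CO-CM libraries. With the replicate block Il11ra1 was also called lower under PH-CM than in UNX (FDR = 0.000893).

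Of the 5 interferon receptor genes 4 were tested, with 3 higher under PH-CM, 2 higher under CO-CM and 1, Ifngr1, higher in PH-CM than in CO-CM (log2 0.71 ± 0.10 SE, FDR = 0.000301). Of all genes tested, 63%, 57% and 27.1% were called in these 3 comparisons. Among common gamma, common beta and IL-12 receptor chains, 11 of 15 were tested. Under PH-CM 6 were higher and 1 lower than in UNX, under CO-CM 9 were higher and 2 lower, and between the media 5 were higher and 3 lower in PH-CM. The 7 of 11 called under PH-CM are close to the 63% of all genes. The counts under CO-CM and between the media stand beside 57% and 27.1% of all genes called. Il4ra, the IL-4 receptor chain upstream of STAT6, went from 102 to 112 CPM in UNX to 123 to 148 CPM in CO-CM and 274 to 346 CPM in PH-CM. The groups were fully apart (log2 1.16 ± 0.09 SE between the media, FDR = 7.01e-06), and the gene shares 571 exon bases with Gm44876 on the opposite strand. Il21r, the IL-21 receptor, lay at 29.9 to 34.2 CPM in UNX, 13.6 to 16.0 CPM in CO-CM and 36.2 to 37.8 CPM in PH-CM (log2 1.35 ± 0.08 SE between the media, FDR = 8.09e-07). Il12rb2, an IL-12 receptor chain upstream of STAT4, was lower under PH-CM than under CO-CM (log2 -1.42 ± 0.09 SE, FDR = 1.31e-06), but shares 1519 exon bases with Serbp1 on the opposite strand. Il3ra, an IL-3 receptor chain, was also lower (log2 -0.53, FDR = 0.0133), a call lost without CO-CM replicate 3 or PH-CM replicate 1. Against UNX, Il3ra was higher under CO-CM (log2 0.78, FDR = 0.000642) and not called under PH-CM (log2 0.24).

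All 4 JAK kinase genes were higher under PH-CM than in UNX, by log2 values of 0.38 (Jak1), 0.41 (Jak2), 0.52 (Jak3) and 0.44 (Tyk2). Under CO-CM 3 of the 4 were higher, of which Jak1 and Jak2 lost their call when counts were scaled by library size alone (log2 0.23 and 0.24). Jak2 also lost it without UNX replicate 1 (log2 0.25). Between the media 0 of 4 were called, and also 0 at an unadjusted p under 0.05, with the exact test and with DESeq2, with log2 values of 0.08, 0.10, 0.26 and -0.07. Of all genes tested, 63% were called under PH-CM against UNX, 57% under CO-CM against UNX and 27.1% between the media.

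The other SOCS genes gave 2 higher of 5 under PH-CM, and 1 higher and 1 lower under CO-CM. Of all genes tested, 63% and 57% were called there. Socs2, a STAT5 target, rose from 0.450 to 0.697 CPM in UNX to 1.32 to 1.81 CPM in PH-CM (log2 1.31 ± 0.24 SE, FDR = 0.000606), but passed the filter only with the PH-CM libraries, in which it is highest. Its excess over CO-CM (log2 0.70, FDR = 0.0375) lost its call when replicate 1 or 2 of CO-CM, or replicate 1 or 3 of PH-CM, was left out (FDR up to 0.128). With the replicate block Socs2 was also called higher under CO-CM than in UNX (log2 0.61, FDR = 0.0375), as it was with the exact test, DESeq2's size factors and upper-quartile factors. Socs6 was higher under CO-CM (log2 0.86, FDR = 2.54e-06) than under PH-CM (log2 0.43 over UNX, FDR = 0.000297), with -0.43 between the media (FDR = 0.00106). Of 10 PIAS and phosphatase genes that restrain the pathway, 2 were called under PH-CM against UNX, each higher. Under CO-CM 2 were higher and 2 lower than in UNX. Of all genes tested, 63% and 57% were called in these comparisons. Between the media 3 were higher and 1 lower in PH-CM than in CO-CM, beside 27.1% of all genes called. The lower one was Ptpn1, a phosphatase of JAK kinases (log2 -0.35 ± 0.05 SE, FDR = 0.000347). Against UNX Ptpn1 was higher in both media, by log2 values of 0.52 under PH-CM and 0.87 under CO-CM. Ptpn2, another phosphatase of JAKs and STATs, was higher in PH-CM than in CO-CM (log2 0.31 ± 0.05 SE, FDR = 0.000929). It was lower than in UNX under CO-CM (log2 -0.42, FDR = 3.90e-05) and not called under PH-CM (log2 -0.10). The other higher ones were Sh2b3 (log2 0.28, FDR = 0.00124) and Ptprc (log2 0.28, FDR = 0.000876). Upper-quartile factors gave 2 calls between the media in place of these 4, 1 in each direction, without Sh2b3 and Ptprc. Ptprc also lost its call without CO-CM replicate 3.

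Target genes known for each STAT were counted in lists of which none holds any of the 9 genes. Of 14 STAT3 targets tested, 12 were higher and 2 lower under PH-CM than in UNX, with a median log2 fold change of 1.55, beside 31.3% of all genes higher, 31.7% lower and a median of 0.01. Under CO-CM 9 were higher and 3 lower (median 0.73), beside 28.0% and 28.9% of all genes and a median of 0.0002. Between the media 9 were higher and 2 lower in PH-CM (median 0.87), beside 12.2% and 15.0% of all genes and a median of -0.01. Saa3 passed the filter only with the PH-CM libraries. The genes furthest up between the media were Vegfa, the vascular growth factor, at 325 to 473 CPM in PH-CM against 65.8 to 162 CPM in CO-CM (log2 1.87 ± 0.32 SE, FDR = 0.00119), and Nfil3, a bZIP repressor, at 24.2 to 40.7 CPM against 8.03 to 12.0 CPM (log2 1.65 ± 0.19 SE, FDR = 0.000104). Both groups of libraries were apart for both genes. The 2 lower targets were Fgl2 (log2 -0.76, FDR = 0.0237) and Bcl2l1, the survival gene of BCL-XL (log2 -0.29, FDR = 0.0258). Fgl2 was above UNX in both media, under PH-CM (log2 1.07, FDR = 0.00206) and further under CO-CM (log2 1.83, FDR = 5.84e-05). Bcl2l1 was far below UNX in both media, at 259 to 280.5 CPM in UNX, 64.2 to 81.9 CPM in CO-CM and 53.3 to 62.4 CPM in PH-CM. Its call between the media was lost without CO-CM replicate 3 (log2 -0.18) and without replicate 1 or 2 of PH-CM, and that of Fgl2 without CO-CM replicate 2 or PH-CM replicate 1.

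Of 17 ISGF3 targets tested, the genes that STAT2 serves, 0 were higher and 16 lower under CO-CM than in UNX (median log2 fold change -1.05). Under PH-CM 0 were higher and 10 lower (median -0.52). Between the media 11 were higher and 1 lower in PH-CM (median 0.69). Of all genes, 28.9% were lower under CO-CM, 31.7% were lower under PH-CM and 12.2% were higher in PH-CM than in CO-CM. Mx1 and Mx2 passed the filter only with the UNX libraries, in which they are highest. The 10 became 6 when UNX replicate 3, or replicate 1 or 2 of PH-CM, was left out. The count of higher genes against UNX was 0 in both media also at an unadjusted p under 0.05, with the exact test and with DESeq2. Oasl1 was at 1.96 to 2.58 CPM in UNX, 0.234 to 0.449 CPM in CO-CM and 1.14 to 1.71 CPM in PH-CM. Its groups did not overlap, with CO-CM lowest (log2 1.89 ± 0.27 SE between the media, FDR = 0.000397). Irf9, the DNA-binding partner of STAT2, was at 45.3 to 50.6 CPM in UNX, 40.5 to 44.7 CPM in CO-CM and 50.9 to 51.2 CPM in PH-CM (log2 0.28 ± 0.06 SE between the media, FDR = 0.00291). That call was lost to the fold threshold without CO-CM replicate 1 or 2 and with upper-quartile factors. The 1 gene lower in PH-CM was Bst2, the tetherin gene (log2 -0.36 ± 0.09 SE, FDR = 0.00909). Mx1, an antiviral GTPase gene, passed between the media with 1.25 on the log2 scale (FDR = 0.0382) but the call was lost without any 1 of the CO-CM libraries, or without PH-CM replicate 3 (log2 0.63, FDR = 0.169).

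Of 18 STAT6 targets, 10 were tested. Under PH-CM 3 were higher and 6 lower than in UNX, under CO-CM 2 were higher and 3 lower (3 calls in all without any 1 UNX library), and 4 were higher and 2 lower in PH-CM than in CO-CM. The 9, 5 and 6 of 10 called stand beside 63%, 57% and 27.1% of all genes, and Mgl2, among the lower ones against UNX, passed the filter only with the UNX libraries. The higher ones included Tgm2, a transglutaminase gene, at 573 to 625 CPM in PH-CM against 114 to 137 CPM in CO-CM and 88.9 to 111 CPM in UNX (log2 2.31 ± 0.10 SE between the media, FDR = 1.00e-07). Tgm2 shares exon bases with the opposite-strand genes Gm20412 and Rprd1b, at most 633 with any 1 of them. Arg1, the arginase gene, was spread widely, at 31.5, 119 and 64.2 CPM in PH-CM against 0.905, 16.2 and 7.28 CPM in CO-CM (log2 3.14 ± 0.83 SE, FDR = 0.0127), and the call was lost without CO-CM replicate 3 or PH-CM replicate 2 (FDR up to 0.0505). The log2 value became 4.12 without CO-CM replicate 2. The lower ones were Pparg, a lipid-sensing nuclear receptor gene (log2 -1.59 ± 0.09 SE, FDR = 7.74e-07), and Egr2, a zinc finger factor gene, at 1.72 to 3.07 CPM in PH-CM against 10.6 to 24.1 CPM in CO-CM (log2 -2.95 ± 0.37 SE, FDR = 0.000158). With the replicate block Egr2 was also called higher under CO-CM than in UNX (FDR = 1.58e-05), as it was with the exact test, with upper-quartile factors and without a filter, and so was the STAT3 target Vegfa (FDR = 0.000518).

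Of 8 STAT5 targets, 7 were tested. Under PH-CM 1 was higher and 4 were lower than in UNX, under CO-CM 0 were higher (also 0 at an unadjusted p under 0.05, with the exact test and with DESeq2) and 3 lower, and 2 were higher and 1 lower in PH-CM than in CO-CM. The 5, 3 and 3 of 7 called stand beside 63%, 57% and 27.1% of all genes. The higher ones were Osm, which is also on the ligand list, and Ccnd2, a cyclin gene (log2 0.48 ± 0.15 SE, FDR = 0.0267). The lower one was Bcl2, a survival gene (log2 -0.89 ± 0.26 SE, FDR = 0.0207). Ccnd2 lost its call when replicate 2 or 3 of CO-CM, or replicate 1 or 3 of PH-CM, was left out, and Bcl2 lost it without replicate 3 of CO-CM or replicate 2 or 3 of PH-CM. The 3 calls became 1 without CO-CM replicate 3 or PH-CM replicate 3. Bcl2 shares 558 exon bases with an opposite-strand gene, and Ccnd2 at most 372 with any 1 of 2 such genes. Bcl2 and Ccnd2 were far lower in the media than in UNX, with Ccnd2 at 16.8 to 24.9 CPM and Bcl2 at 26.6 to 31.1 CPM in UNX, and no more than 9.23 and 6.33 CPM in any treated library.

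**Figure D4:**
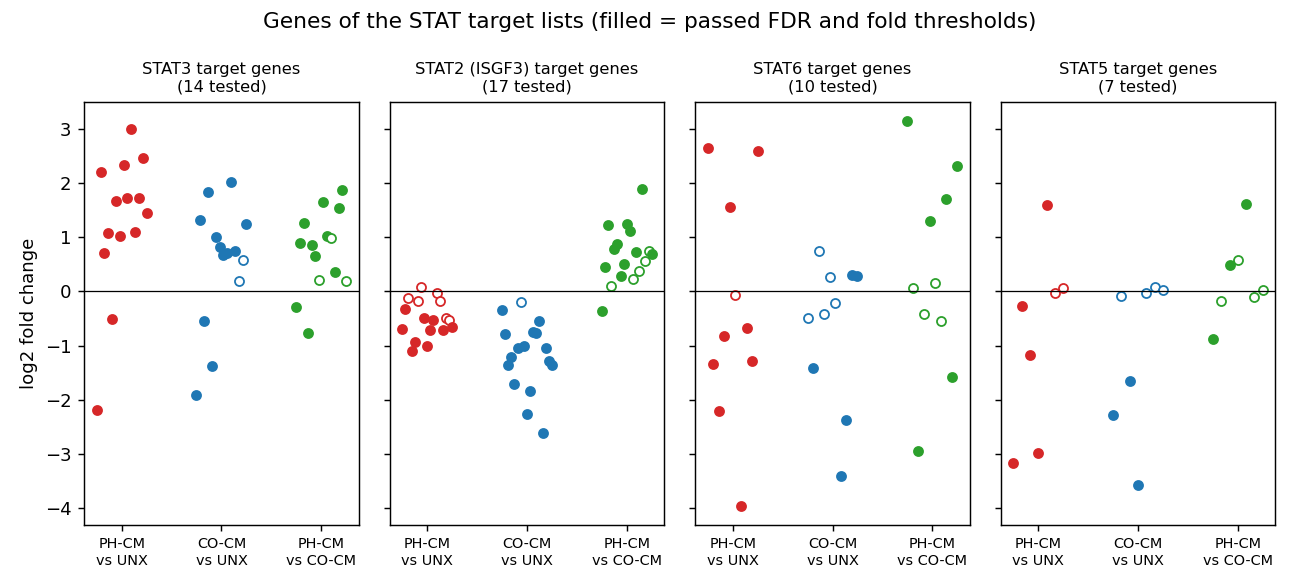
Log2 fold change (y axis) of the tested genes of 4 target lists in the 3 comparisons (x axis). Each point is a gene, and filled points passed both thresholds. STAT3 targets lie mostly above 0 in all 3 columns, ISGF3 targets lie below 0 under CO-CM against UNX and mostly above 0 between the media, and STAT6 and STAT5 targets spread to both sides.

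The genes whose log2 CPM followed each STAT or SOCS gene most closely were sought over the 9 libraries among the 11949 other genes tested. The libraries fall into 3 groups, so Pearson's r mostly reflects the 3 group means, and it is given with no test. Stat2 was followed by Stx2 (r = 0.992) and by Il21r (r = 0.989), the receptor gene described above. Stat3 was followed by Snx9 and Zfp263 (r = 0.995 each), and Socs3 by Nuak2 (r = 0.997) and Prdx5 (r = 0.996). For Stat4 the nearest were Psma1 (r = 0.991) and Pank2 (r = 0.987), and for Socs1 they were Nmi (r = 0.959) and Gm4202 (r = 0.948). Stat6 had Kdm3a (r = 0.997) and Nectin4 (r = 0.979), and Stat5b had Cep95 (r = 0.979) and Unc13d (r = 0.9747). Stat5a, which did not vary between groups, had the lowest values, Strada (r = 0.850) and Tdrd7 (r = 0.831).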

How the data were processed

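RNA-Seq of 9 BMDM libraries, 3 each of UNX, CO-CM and PH-CM, was analysed, with groups and replicate numbers taken from the labels. Per the labels, the authors used FastQC for read quality, AfterQC for trimming, STAR for alignment to GRCm38 and featureCounts 1.6.2 for assignment to genes, and the deposited counts are raw reads per gene. The featureCounts options listed in the study's methods name neither strand nor read pairs, so the defaults, without strand and with mates counted singly, were assumed, and 81.4% to 83.8% of the counts below 20 were even. The deposited RPKM values were made by the authors from these counts, the gene length and the library total, and were used here only to compare levels between genes, with no test. The authors' comparison tables (log2 fold changes and p-values) were not used.

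Genes above 1 CPM in at least 3 libraries (11950) were normalised by TMM and fitted in edgeR 4.0.16 (R 4.3.3) with all 9 libraries, a mean per group and the quasi-likelihood test; FDR is Benjamini-Hochberg over all genes tested. The fit was tested first on simulated counts in which few genes changed and libraries were independent. That simulation does not test the scaling or error rates where most genes are called, as here against UNX. Printed CPM values are TMM-normalised, SE and intervals are of the log2 fold change, and r used a prior count of 2. DESeq2 1.42.0 was an alternative. At 62017933 to 84314201 reads per library, counting error matters most for genes with few reads, of the 9 followed Cish, Socs1 and Stat4, and for rare listed genes such as Il27ra, Lif, Mx1 and Oasl1.

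The genes, lists and naming rule were chosen with earlier results of these data known. Named from each list were up to 2 called genes with the highest and 2 with the lowest log2 fold change between the media, or for a list with no such call under PH-CM against UNX, and the 2 genes most like each gene followed by r. A single value could not pass an exact permutation test of 3 against 3 libraries (smallest two-sided p = 0.1). That is a different test from edgeR's exact test named above.

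Same-numbered libraries deviated together from their group means (r = 0.276 to 0.484, other numbers -0.376 to 0.042), so every same-numbered pair met the criterion for pairing (r over 0.1), which the labels do not state. The printed values come from the fit without a replicate block, and a blocked fit was an alternative. No 2 libraries agreed within sampling noise. Coordinates and shared exon bases come from GENCODE annotation of GRCm38, promoters from RefSeq.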

Additional observations from a re-analysis of the deposited data

Results flagged for a closer look

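Stat4 was set apart because the media moved it in opposite directions and the difference itself was tested. It was higher under PH-CM and lower under CO-CM than in UNX, with 2.60 on the log2 scale between the media (edgeR, FDR = 5.38e-06), in all 3 libraries of each medium. Pparg, a STAT6 target, was set apart for the same reason in reverse, lower under PH-CM (log2 -1.29) and higher under CO-CM (log2 0.30), with -1.59 between the media (FDR = 7.74e-07). The rise of Pparg under CO-CM lost its call without UNX replicate 1 or CO-CM replicate 3, with library size alone and without the filter. The rise of Stat4 under PH-CM lost its call without UNX replicate 1 or PH-CM replicate 3. Neither rise was called at a fold threshold of 2. The FDRs printed here are for the gaps between the media and not for the opposite directions. Groups of 3 libraries are too small to look for single outlying libraries.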

How the results depend on the processing

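Of 488 alternative values for the log2 fold changes of the 9 genes, 448 kept their direction and their side of the thresholds, and all 15 called changes, those of Cish in its unfiltered fit among them, kept their direction in each alternative run. With a fold threshold of 2, the number of genes called dropped to 2 under PH-CM against UNX, 3 under CO-CM against UNX and 2 between the media. The replicate block, which pairs same-numbered libraries, changed no call of the 9 genes: it left 4, 5 and 4 called. Dividing the counts by 2, for mates counted singly, also changed no call of the 9 genes. The block gave Socs2, Lif, Il15, Vegfa, Egr2 and Il11ra1 a further call each, as stated beside them, and changed no other call of a named gene.

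The direction changed only in values that were not called. Stat2 under PH-CM against UNX was -0.0216 with library size alone, -0.0089 without a filter and -0.0028 with edgeR's filterByExpr, and -0.0081 to 0.0629 when single libraries were left out. Stat5a under PH-CM against UNX was -0.0504, -0.037 and -0.0308 in the same order (-0.0109 to 0.0218 leaving out libraries), and under CO-CM against UNX -0.0521, -0.0214 and -0.0142 (-0.0127 to 0.0353 leaving out libraries). Between the media Stat5a was 0.0017 with library size alone (-0.0269 to 0.0204 leaving out libraries) and Stat5b 0.0021 (-0.0333 to 0.0227). Stat6 under CO-CM against UNX was -0.0162 with library size alone. Under CO-CM against UNX, upper-quartile factors gave Cish 0.12 (-0.89 to 0.28 leaving out libraries) and Osm 0.0376 (-0.17 to 0.11), and Arg1 ranged from -1.47 to 0.25 leaving out libraries. The cause of these changes was not tested. With 1 library left out, the spread of its group comes from the pooled fit. Cish had only 8 to 83 reads a library, and fewer fragments if mates were counted singly.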
